A study of Mus musculus with 6 samples.

Results

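The messenger RNAs of 9 enzymes that make serine and pass its carbon to folate were measured in 661W cells, an immortalised mouse line that came from a retinal tumour of mice carrying a viral oncogene, is known as cone-derived, and is labelled as photosensitive cells. The members were taken by gene symbol, and all 9 were found among the 24879 lines of the deposited table: Phgdh, Psat1, Psph, Shmt1, Shmt2, Mthfd1, Mthfd1l, Mthfd2 and Aldh1l2. The Light group, 3 libraries, came from cultures kept under a cold white fluorescent lamp of 2000 ± 100 lux for 24 h. The Dark group, also 3 libraries, came from cultures kept without light for 24 h. Both groups were the same line, grown in the same serum-containing medium, with no other agent named. Because the labels do not state that replicates were separate cultures, the p-values below measure the spread between libraries, which may be technical.

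Serine is built from the glycolytic intermediate 3-phosphoglycerate in consecutive steps by the dehydrogenase PHGDH, the aminotransferase PSAT1 and the phosphatase PSPH. The hydroxymethyltransferases SHMT1 in the cytosol and SHMT2 in mitochondria then split serine into glycine and a carbon unit bound to tetrahydrofolate. That unit is oxidised in mitochondria by MTHFD2, released as formate by MTHFD1L or burned to carbon dioxide by ALDH1L2, and it is taken up in the cytosol by MTHFD1 for the synthesis of purines, thymidylate and methionine. Several of these genes are known targets of ATF4, the transcription factor of the integrated stress response, and in the retina serine is made chiefly by Müller glia and supplied to photoreceptors.

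Levels are in FPKM, the fragments of a gene scaled to its transcript's length and to the size of the library, and summed to between 411186 and 434372 in the Dark libraries and between 459198 and 471471 in the Light libraries. Read totals do not accompany them, so depth is unknown. The libraries separated by group along a leading principal component with 78.5% of the variance, and Dark 1 and Light 2 lay at its ends. Libraries of the same group were also spread along this component, and Dark 2 lay nearer to Light 1 than to Dark 1. Its share of the variance therefore holds differences within groups as well as the difference between them. The line showed little of a cone's transcript set: all 12 cone and photoreceptor markers had a mean under 1 FPKM, 6 of them (Arr3, Cngb3, Opn1mw, Otx2, Pde6c and Rcvrn) stood at 0 in every library, and the 12 summed to 0.949 to 2.10 FPKM in Dark and 0.950 to 1.37 FPKM in Light. The 5 fibroblast markers (4 of them at a mean of 1 FPKM or more) summed to between 724.5 and 842 FPKM in Dark and between 353 and 382 FPKM in Light, the 4 Müller glia markers (2 at a mean of 1 FPKM or more, Glul and Slc1a3) to between 53.8 and 57.2 FPKM in Dark and between 34.6 and 36.4 FPKM in Light, and the 3 immune markers (1 at that mean, Cd68) to between 3.45 and 4.32 FPKM in Dark and between 7.07 and 9.29 FPKM in Light. The part of these differences in the results below was not tested. Rod, pigment epithelium, ganglion and endothelial markers all had means under 1 FPKM.

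Light-exposed cells held more mRNA for 8 of the 9 enzymes, and none of the 9 was lower. The 3 enzymes of serine synthesis nearly doubled together, as did the mitochondrial Shmt2 and Mthfd2, and the mitochondrial Aldh1l2 rose most. Mthfd1l rose less, the cytosolic Shmt1 rose least among those called, and the cytosolic Mthfd1 did not pass the test. Genes whose mean reached 1 FPKM were tested on log2(FPKM + 1) by limma and called at a Benjamini-Hochberg adjusted p under 0.05 over all 11068 genes tested, and every log2 change given here is the Light mean minus the Dark mean on that scale. All 9 members passed this filter. Among all genes tested 35.6% were called, 19.2% as higher and 16.4% as lower, so calls were common, and the count of 8 higher members is to be read against that 19.2%. In the same 8 members all Light libraries exceeded all Dark libraries, which held for 28.2% of all genes tested. The members also differed from most genes in size: their median log2 change was 0.89, against -0.01 over all genes tested, with quartiles of -0.28 and 0.22. Many of those genes were expressed at lower levels than the members. Among the 8395 genes whose mean reached 5 FPKM, 2022 were higher and 1415 lower, with a median of 0.04, and 8 members stayed higher. A log2 change of at least 0.8 with a call, a bound chosen after the values were seen, was found in 6 members and in 1.5% of all genes tested. Rescaling every library to the same FPKM total moved the median of all genes to -0.13 and the split of calls to 1212 higher and 2902 lower, from 2128 and 1810, while 8 members stayed higher with a median of 0.75, or 0.89 above the median of all genes.

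**Figure D1:**
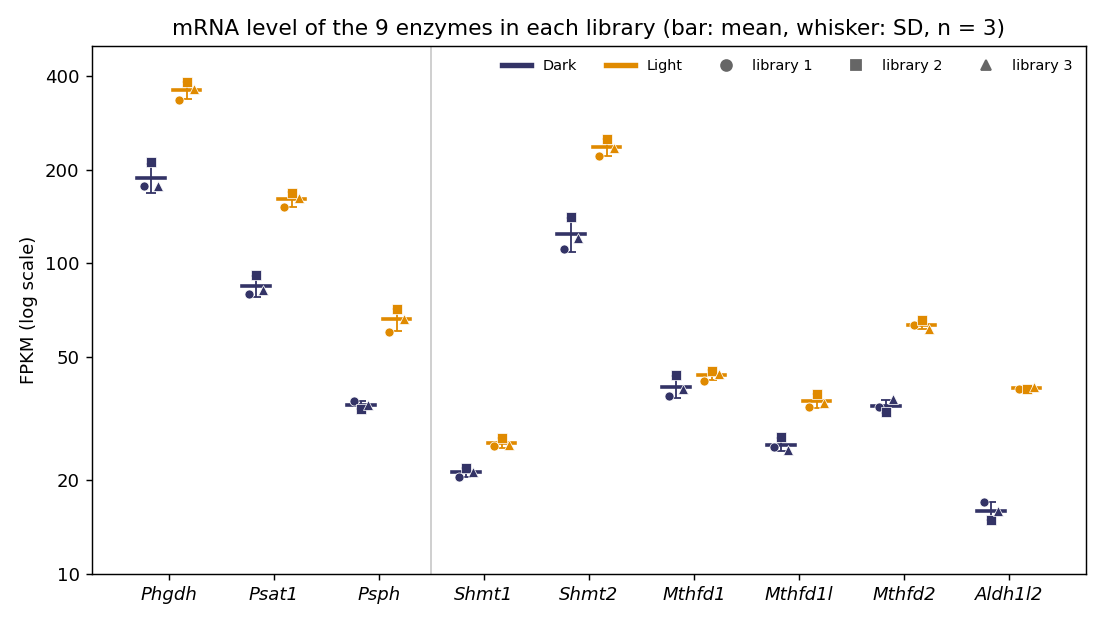
FPKM on a log axis for each enzyme in each library, Dark in blue and Light in orange, with the mean as a bar and the SD as a whisker (n = 3 per group). In every enzyme but Mthfd1 the 3 Light points lie above the 3 Dark points, with Phgdh at the top (335 to 382 FPKM in Light) and Aldh1l2 showing the widest step (from 14.9 to 16.98 FPKM in Dark to 39.2 to 40.0 FPKM in Light).

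Because these genes moved together, the DNA around their start sites was searched for 3 short motifs on both strands. TGATGNAA is the core of the element that ATF4 binds with C/EBP proteins, CACGTG is the E-box bound by MYC, and TGACNNNGC is the core of the antioxidant response element bound by NRF2. Promoters of 300 bases, from 250 before to 50 after the start, came from RefSeq on build GRCm38.p6 and matched 8 of the 9 members by symbol, Psat1 with a pair of starts; Aldh1l2 had no entry. Of 32851 promoters in the same set, 3.97% held TGATGNAA, 7.15% CACGTG and 12.4% TGACNNNGC. No member promoter held either of the first 2 motifs, and TGACNNNGC was found in Phgdh, starting 53 bases before the start site as GCGGAGTCA on the minus strand of the promoter, and in Psph, 4 bases after it as GCGACGTCA. A match describes letters, not a bound site, and the absence of one holds for this window alone. The windows of Mthfd2 and Psat1 lie inside the gene spans given below, whose 5′ ends on the minus strand are at 83325908 and 15947337. Sequence at those ends was not searched. The promoters of Phgdh and Psph are printed because they hold these matches, those of Shmt2 and Mthfd2 as called members without any, and that of Asns, a textbook ATF4 target, to show both motif types in 1 window; capitals mark the matches, and each sequence reads 5′ to 3′ along its gene's strand.
Phgdh promoter, chr3:98339920-98340219 (- strand): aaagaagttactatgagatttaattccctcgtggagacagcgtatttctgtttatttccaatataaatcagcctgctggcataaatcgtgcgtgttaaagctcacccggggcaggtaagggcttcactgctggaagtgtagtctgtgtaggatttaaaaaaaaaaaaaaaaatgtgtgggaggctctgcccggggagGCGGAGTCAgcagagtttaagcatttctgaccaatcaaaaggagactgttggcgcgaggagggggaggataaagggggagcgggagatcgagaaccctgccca
Psph promoter, chr5:129787204-129787503 (- strand): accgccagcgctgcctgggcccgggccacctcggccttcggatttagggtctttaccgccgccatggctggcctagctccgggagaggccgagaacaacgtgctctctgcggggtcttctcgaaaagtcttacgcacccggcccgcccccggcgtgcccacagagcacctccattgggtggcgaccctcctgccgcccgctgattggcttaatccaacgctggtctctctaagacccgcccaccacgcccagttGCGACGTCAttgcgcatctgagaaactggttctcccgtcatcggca
Shmt2 promoter, chr10:127522395-127522694 (- strand): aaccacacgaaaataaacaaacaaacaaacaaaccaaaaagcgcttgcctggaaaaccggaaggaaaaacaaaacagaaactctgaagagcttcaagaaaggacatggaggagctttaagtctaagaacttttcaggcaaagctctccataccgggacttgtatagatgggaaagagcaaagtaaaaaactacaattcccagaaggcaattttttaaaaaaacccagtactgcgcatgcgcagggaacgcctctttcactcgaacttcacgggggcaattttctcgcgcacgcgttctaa
Mthfd2 promoter, chr6:83317555-83317854 (- strand): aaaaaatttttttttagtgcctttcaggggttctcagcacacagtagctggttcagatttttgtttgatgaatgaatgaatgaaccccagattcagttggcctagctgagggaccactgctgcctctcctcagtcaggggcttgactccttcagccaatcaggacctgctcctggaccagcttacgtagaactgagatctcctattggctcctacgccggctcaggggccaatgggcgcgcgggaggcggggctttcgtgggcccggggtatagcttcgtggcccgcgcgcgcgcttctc
Asns promoter, chr6:7693160-7693459 (- strand): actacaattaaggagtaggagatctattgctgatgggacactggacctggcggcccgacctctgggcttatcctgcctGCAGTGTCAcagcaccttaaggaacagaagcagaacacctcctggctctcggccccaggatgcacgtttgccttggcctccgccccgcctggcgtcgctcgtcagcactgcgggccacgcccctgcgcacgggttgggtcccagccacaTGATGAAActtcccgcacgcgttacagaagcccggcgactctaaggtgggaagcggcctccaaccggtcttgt
The TGATGNAA match of Asns, TGATGAAA, lies 23 bases before its start site and its TGACNNNGC match lies 172 bases before it. The windows of Chac1 and Trib3 also held TGATGNAA, and those of Atf4 and Ddit3 held none of the 3 motifs.

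Serine synthesis was the most abundant part of the set. Phgdh, whose product commits 3-phosphoglycerate to serine and whose gene spans chromosome 3 from 98313170 to 98339990 in mm10, stood at 176, 212 and 176 FPKM in Dark 1, 2 and 3 and at 335, 382 and 364 FPKM in Light 1, 2 and 3. All Light libraries exceeded all Dark libraries, and library 2 was the highest of each group. Mean Phgdh was 188 ± 20.4 FPKM in Dark and 360.4 ± 23.6 FPKM in Light (SD, n = 3). The log2 difference of 0.94 ± 0.10 (SE) was called (limma adjusted p = 0.00101). Phgdh ranked above 98.0% of the tested genes by mean level. Its transcript resembles 17 annotated processed pseudogenes, at 90.4% to 98.75% identity over at least 100 bases. None of those copies has a line under its own identifier among the FPKM values, and reads shared with them leave the level of Phgdh uncertain to that extent.

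Psat1, which moves an amino group from glutamate onto the product of PHGDH and lies on chromosome 19 from 15904678 to 15947337, held 79.6, 91.5 and 81.7 FPKM in the Dark libraries and 151, 169 and 162 FPKM in the Light libraries. Again the groups did not overlap, and library 2 was highest in each. Its log2 change was 0.92 ± 0.08 (adjusted p = 0.000525). A processed pseudogene, Gm12611, is 90.8% identical to it over 1059 bases and has no line under its own identifier. Psph, which removes the phosphate in the last step and lies on chromosome 5 from 129765558 to 129787449, held 36.0, 33.9 and 34.9 FPKM in Dark and 60.2, 71.2 and 66.2 FPKM in Light. Its Dark values were close together, with a mean of 34.9 ± 1.04 FPKM, and the groups stood apart. Psph shares 255 bases with Cct6a on the opposite strand, which has no line under its own identifier, and the strand setting is unknown. The log2 change of Psph was 0.89 ± 0.08 (adjusted p = 0.000503). The ratios of the Light mean to the Dark mean, in plain FPKM, were 1.91 for Phgdh, 1.91 for Psat1 and 1.88 for Psph. On these values the 3 steps kept nearly the same proportions to each other. Once each library's trend with transcript length and GC content was removed, the log2 changes differed more, at 0.70 for Phgdh, 0.87 for Psat1 and 0.82 for Psph. Summed, the 3 genes went from 307 ± 25.8 to 587 ± 38.01 FPKM, and from 729.6 ± 40.6 to 1261 ± 65.7 ppm of each library's FPKM total.

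Among the mitochondrial enzymes, Shmt2 was the most abundant. It transfers the carbon of serine to mitochondrial tetrahydrofolate and lies on chromosome 10 from 127517123 to 127522444. The Dark libraries held 111, 141 and 120.2 FPKM and the Light libraries 221, 251 and 234 FPKM. The lowest Light value exceeded the highest Dark value by a wide margin, although Dark 2 stood above its group. The means were 124 ± 15.4 and 236 ± 15.2 FPKM, a log2 change of 0.92 ± 0.10 (adjusted p = 0.00129).

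Mthfd2, the mitochondrial dehydrogenase and cyclohydrolase that is often raised in dividing and transformed cells, lies on chromosome 6 from 83305691 to 83325908. It held 34.3, 33.1 and 36.5 FPKM in Dark and 63.2, 65.4 and 61.3 FPKM in Light. Both groups were tight, and here Dark 2 was the lowest Dark library. The log2 change was 0.85 ± 0.06 (adjusted p = 0.00034). Mthfd1l, which joins formate to or releases it from tetrahydrofolate inside mitochondria, lies on chromosome 10 from 3973118 to 4167081. Its Dark values were 25.5, 27.5 and 25.1 FPKM and its Light values 34.4, 37.9 and 35.6 FPKM. The groups stood apart, at a smaller distance than those of Mthfd2: the log2 change of Mthfd1l was 0.45 ± 0.07 (adjusted p = 0.00425).

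Aldh1l2, the mitochondrial enzyme that oxidises formyl-tetrahydrofolate to carbon dioxide while making NADPH, lies on chromosome 10 from 83487450 to 83534140. It was the lowest member in Dark, at 16.98, 14.9 and 15.9 FPKM, and stood at 39.2, 39.4 and 40.0 FPKM in Light. The Light libraries lay close together, with an SD of 0.402 FPKM. Its plain ratio of means was 2.48 and its log2 change 1.26 ± 0.07 (adjusted p = 0.000113), the 15th smallest p-value and the 44th largest increase among the 11068 genes tested. It was the 1 member with a log2 change of at least 1, which 0.759% of all genes tested reached with a call. Aldh1l2 shares 1056 bases with D10Wsu102e, a gene on the opposite strand, and no source used here gives the strand setting, so reads of that stretch cannot be assigned to either gene. The level of D10Wsu102e ran from 0.615 to 0.679 FPKM in Dark and from 0.585 to 0.655 FPKM in Light.

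The 2 cytosolic folate enzymes gave the smallest changes. Shmt1, the cytosolic counterpart of Shmt2, lies on chromosome 11 from 60788104 to 60811718 and held 20.4, 21.9 and 21.3 FPKM in Dark and 25.7, 27.4 and 26.0 FPKM in Light. The groups did not overlap, and the log2 change was 0.30 ± 0.06 (adjusted p = 0.0123). That call was lost without Dark 3 (adjusted p = 0.0546), without Light 2 (0.057) or without Light 3 (0.0563), with log2 changes of 0.27 to 0.31. With equal FPKM totals the change of Shmt1 shrank to 0.16 (adjusted p = 0.0404). Shmt1 shares 184 bases with Smcr8 on the opposite strand, which stood at 13.8 to 15.4 FPKM in Dark and 16.1 to 16.4 FPKM in Light. Mthfd1, the cytosolic enzyme with dehydrogenase, cyclohydrolase and synthetase activities, lies on chromosome 12 from 76255298 to 76319803. It held 37.3, 43.5 and 39.2 FPKM in Dark and 41.8, 45.0 and 43.9 FPKM in Light. Dark 2 lay above Light 1, so the groups overlapped, and the log2 change of 0.12 ± 0.07 was not called (adjusted p = 0.216). Its sign turned to -0.02 when libraries were rescaled to the same FPKM total, and without Dark 2 it was called at 0.18 (adjusted p = 0.0412).

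**Figure D2:**
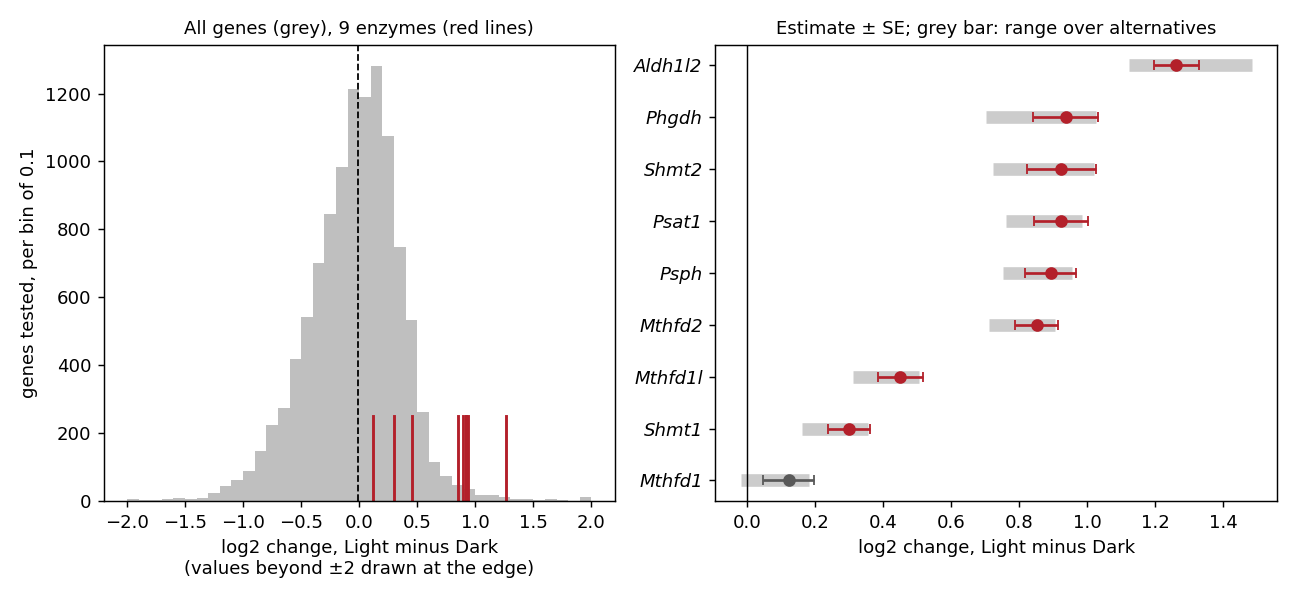
Left, log2 changes (Light minus Dark) of all 11068 genes tested as a histogram, with their median as a dashed line and the 9 enzymes as red lines. Right, each enzyme's log2 change with its SE, red where called, over a grey bar that spans 16 alternative fits: 8 bars lie wholly above 0, and that of Mthfd1 runs from -0.02 to 0.18.

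In Dark the levels, which FPKM makes comparable per transcript length, fell in the order Phgdh, Shmt2, Psat1, Mthfd1, Psph, Mthfd2, Mthfd1l, Shmt1 and Aldh1l2. Only Psph and Mthfd2 among neighbours in that order had overlapping ranges. In Light, Phgdh, Shmt2 and Psat1 kept the first 3 places, Psph and Mthfd2 again overlapped with each other, and Mthfd1 fell from the fourth place to the sixth. Aldh1l2, at 39.5 ± 0.402 FPKM, had moved above Mthfd1l at 35.9 ± 1.82 and Shmt1 at 26.3 ± 0.927. The 9 genes together held 569 ± 43.7 FPKM in Dark and 1031 ± 58.3 FPKM in Light, that is 1351 ± 64.6 and 2217 ± 96.4 ppm of each library's FPKM total. The mitochondrial enzymes went from 476 ± 20.9 to 805 ± 28.8 on the ppm scale, and the cytosolic enzymes from 145 ± 5.14 to 150.3 ± 3.31. The cytosolic ranges, from 140.4 to 151 in Dark and from 147 to 154 in Light, overlapped.

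Enzymes of the same or adjoining steps in both compartments were compared within each library. Shmt2 exceeded Shmt1 by a ratio of FPKM values of 5.44, 6.44 and 5.65 in Dark 1, 2 and 3 and of 8.61, 9.18 and 9.02 in Light 1, 2 and 3. Mthfd2 over Mthfd1 stood at 0.921, 0.761 and 0.93 in Dark and at 1.51, 1.45 and 1.4 in Light, so Mthfd2 passed from below Mthfd1 to above it. Mthfd1l over Mthfd1 stood at 0.684, 0.632 and 0.64 in Dark and at 0.822, 0.843 and 0.81 in Light. Every Light ratio lay above every Dark ratio in all 3 pairs. On the log2 scale with a pseudocount of 1 the differences were 0.62 for Shmt2 over Shmt1, 0.73 for Mthfd2 over Mthfd1 and 0.33 for Mthfd1l over Mthfd1. Each gave p = 0.1 in a 2-sided exact permutation test over libraries, also after adjustment over the 3 ratios, and 0.1 is the smallest value that 3 against 3 libraries can give.

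**Figure D3:**
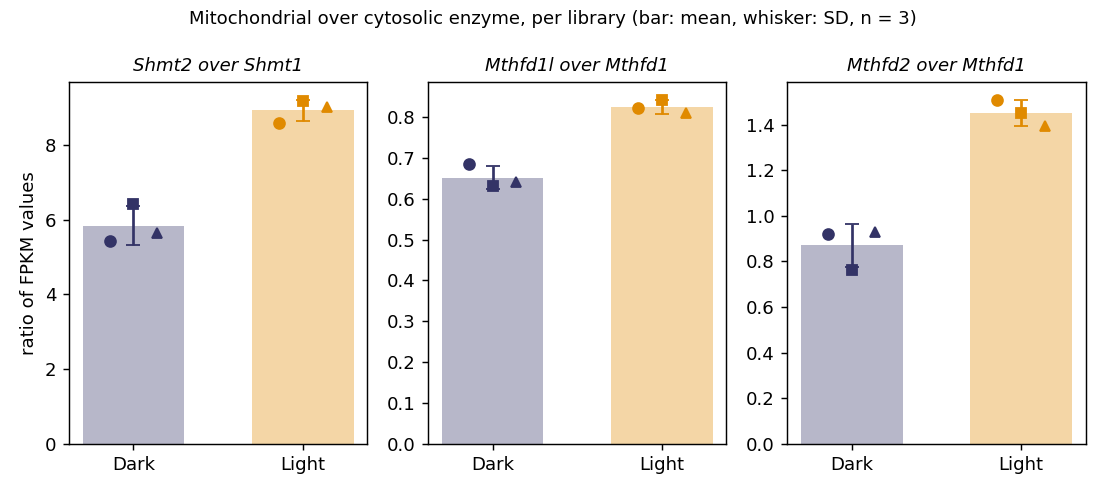
Ratio of FPKM values of a mitochondrial to a cytosolic enzyme in each library, with the group mean as a bar from 0 and the SD as a whisker (n = 3 per group). The Light points lie above the Dark points in each panel, and Mthfd2 over Mthfd1 crosses from 0.761 to 0.93 in Dark to 1.4 to 1.51 in Light.

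Across the 6 libraries the 8 members other than Mthfd1 followed each other closely, with Pearson r of 0.949 to 0.998 between pairs of log2(FPKM + 1) values. Mthfd1 correlated with them at 0.6 to 0.815. These are descriptions over 6 points that fall into 2 groups and share their libraries, so the group difference sets most of them. Within groups, library 2 was the highest of its group in both Dark and Light for 6 members, Phgdh, Psat1, Shmt1, Shmt2, Mthfd1 and Mthfd1l. Library 2 also had the largest FPKM total of each group, at 434372 in Dark and 471471 in Light, and the part of that in the members' order was not tested. Of 8243 other genes whose mean reached 5 FPKM, between 134 and 579 reached r of at least 0.98 with any given member, so a high r was common. The 3 nearest genes were Rps6kc1, Foxf2 and Mars for Phgdh, Narfl, Rusc2 and Atg13 for Psat1, and B2m, Pnrc1 and Rxylt1 for Psph. For the mitochondrial enzymes they were Vat1, Sord and Gars for Shmt2, Arl8a, Mt2 and Gsdme for Mthfd2, Maff, Klhl21 and Kat5 for Mthfd1l, and Dusp3, Nars and Pir for Aldh1l2. For the cytosolic ones they were Nradd, Cdc45 and Acp6 for Shmt1 and Fbxw8, Atp5c1 and Pygb for Mthfd1. All 27 had r between 0.9972 and 0.9998.

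The steps around the 9 enzymes were described by 11 lists of 94 genes, 77 of them tested. Of these 77, 22 were higher, 11 lower and 44 not called, with a median log2 change of 0.03. The 28.6% called higher stood beside 19.2% of all genes tested, and the 11 lists' median beside -0.01. Among the list genes called, Slc19a1, Atic, Cth, Slc1a4, Slc1a5, Slc6a9, Atf4, Ddit3 and Myc kept their calls under all alternatives.

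Folate entry and storage moved both ways, with 2 of 5 tested genes higher, 1 lower and a median of -0.11. Slc19a1, the reduced folate carrier of the cell surface, held 10.1, 11.3 and 11.4 FPKM in Dark and 15.1, 16.5 and 15.7 FPKM in Light. Its log2 change was 0.49 ± 0.08 (adjusted p = 0.00488). Fpgs, which adds the glutamate tail that keeps folate in the cell, rose by 0.34, and Slc25a32, the carrier that brings folate into mitochondria, fell by 0.45. The call of Fpgs was lost without Dark 3, Light 2 or Light 3 (adjusted p of 0.0532 to 0.0634), and that of Slc25a32 without any library but Dark 2 (0.0526 to 0.116). Of 6 other folate-converting genes 1 rose and 1 fell, with a median of 0.03. The one that fell was Mthfd2l, the close relative of Mthfd2 in mitochondria. It held 13.5, 13.6 and 14.4 FPKM in Dark and 9.38, 9.59 and 11.8 FPKM in Light. The change was -0.40 ± 0.10 on the log2 scale (adjusted p = 0.0203). Its call was lost without Dark 3, Light 1 or Light 2 (0.05 to 0.0821), and its change shrank to -0.02 once each library's trend with transcript length and GC content was removed. Aldh1l1, the cytosolic relative of Aldh1l2, was near 0 in both groups, at 0.0854 ± 0.0138 and 0.0808 ± 0.0343 FPKM.

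The genes of glycine cleavage differed widely in level. Gldc, its decarboxylase, had means of 0.792 ± 0.077 FPKM (Dark) and 0.83 ± 0.153 FPKM (Light) and was not tested. Amt had means of 2.23 and 1.53 FPKM in Dark and Light, Dld of 31.1 and 23.9 FPKM, and Gcsh of 58.7 and 74.2 FPKM. Of the 3 tested genes of glycine cleavage, with a median of -0.34, the carrier protein gene Gcsh rose by 0.33. The aminomethyltransferase gene Amt fell by 0.35, while Dld stood at -0.34 (adjusted p = 0.197). Without Dark 3, Light 2 or Light 3 the call of Gcsh was lost (adjusted p of 0.0552 to 0.0618), and that of Amt was lost without any library but Dark 2 (0.0834 to 0.14). In the methionine cycle 0 of 9 tested genes rose and 2 fell, with a median of -0.11. Those were Ahcyl1, a relative of the homocysteine-forming hydrolase, by 0.31, and Amd1, the decarboxylase that leads to polyamines, by 0.35. Their calls were lost without Dark 3, Light 2 or Light 3 (0.0641 to 0.0722 for Ahcyl1; 0.0862 to 0.134 for Amd1, also without Dark 1). Methionine synthase Mtr stood at -0.01 (adjusted p = 0.953), but at 0.40 with a call (adjusted p = 0.00917) after the length and GC correction, and the S-adenosylmethionine synthetase gene Mat2a at -0.13 (adjusted p = 0.252).

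Cth, which releases cysteine from the cystathionine made of serine and homocysteine, was the 1 tested gene of transsulfuration. It held 3.49, 2.38 and 3.78 FPKM in Dark and 13.6, 10.99 and 12.6 FPKM in Light, with no overlap. The log2 difference was 1.68 ± 0.15 (adjusted p = 0.000566). Its partner Cbs had means of 0.00537 ± 0.00931 FPKM (Dark) and 0.0286 ± 0.0274 FPKM (Light) and was not tested.

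Purine synthesis, the main use of formyl-folate, split: 5 of 13 tested genes rose, 2 fell and 6 were not called, with a median of 0.01. The formyl-transfer enzymes are Gart and Atic. Atic rose by 0.44 ± 0.08 on the log2 scale, from 67.0 ± 4.96 to 91.0 ± 4.37 FPKM (adjusted p = 0.00734), and Gart by 0.38. Adssl1 rose by 0.63, Adsl by 0.37 and Impdh1 by 0.29, whereas Prps2, a phosphoribosyl pyrophosphate synthetase gene, fell by 0.63 and Adss, whose product forms adenylosuccinate, by 0.33. Adssl1 stood near the filter of 1 FPKM, at 1.14 ± 0.244 FPKM in Dark and 2.30 ± 0.184 FPKM in Light. Ppat, the first committed step, stood at -0.08 (adjusted p = 0.521). The calls of Gart and Impdh1 were lost without Dark 3, Light 2 or Light 3 (adjusted p of 0.0681 to 0.0945), those of Prps2 and Adss also without Dark 1 (0.0752 to 0.135), that of Adsl without Dark 3 or Light 3 (0.0502 to 0.0545) and that of Adssl1 without Light 3 (0.0507). Of 6 thymidylate and deoxynucleotide genes, with a median of 0.08, 1 rose, the ribonucleotide reductase gene Rrm2 by 0.21, and its call was lost without any library but Dark 2 (0.064 to 0.125). Thymidylate synthase Tyms, which takes its methyl group from methylene-folate, stood at 0.09 (adjusted p = 0.277).

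Carriers of serine and glycine rose in 5 of 9 tested cases and fell in 2, with a median of 0.24. Slc6a9, the glycine transporter, held 4.43, 5.47 and 4.26 FPKM in Dark and 20.5, 24.4 and 19.6 FPKM in Light, a log2 difference of 1.98 ± 0.11 (adjusted p = 0.000132). Slc1a4, a neutral amino acid exchanger that takes serine, rose by 0.68 ± 0.09 (adjusted p = 0.00285) and Slc1a5, which carries glutamine and serine, by 0.33 ± 0.05 (0.00608). Slc38a1 rose by 0.24 and Slc25a38, the mitochondrial glycine carrier, by 0.27, while Slc38a2 fell by 0.53 and Sfxn1, the mitochondrial serine carrier, by 0.22. The calls of these 4 were each lost without Dark 3, Light 2 or Light 3, those of Slc25a38 and Sfxn1 also without Dark 1 or Light 1, and that of Slc38a1 also without Light 1 (adjusted p of 0.0622 to 0.161 over the 4).

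Other users of serine were mostly not called: of 8 tested, 1 rose, 0 fell and the median was -0.08. The riser was Ptdss2, a phosphatidylserine synthase gene, by 0.33, which was not called once Dark 3, Light 2 or Light 3 was left out (adjusted p of 0.0694 to 0.0792). In glycolysis around 3-phosphoglycerate 1 of 6 genes rose, with a median of 0.29, and it was the pyruvate kinase gene Pkm, by 0.38, a call lost without the same libraries (0.0834 to 0.0867). Pgk1, the enzyme gene just before the branch to serine, stood at 0.12 (adjusted p = 0.234) and Pgam1, just after it, at 0.25 (adjusted p = 0.0858).

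Among 11 tested candidate regulators 4 rose and 2 fell, with a median of -0.11. Atf4 rose by 0.97 ± 0.06 (adjusted p = 0.000169) and Ddit3 by 0.98, and the other chosen genes of the ATF4 response by 1.45 (Asns), 1.97 (Chac1) and 2.55 (Trib3). Myc, which also drives serine and folate genes, rose by 0.65 ± 0.06 on the log2 scale, from 31.6 ± 0.462 to 50.3 ± 2.66 FPKM (adjusted p = 0.000769). Trp53 rose by 0.27, a call lost without any library but Dark 2 (0.0528 to 0.138). Of the kinases that lead to ATF4 translation, Eif2ak3 fell by 0.38 and Eif2ak2 by 0.72, Eif2ak1 stood at 0.03 (adjusted p = 0.759) and Eif2ak4 at -0.23 (adjusted p = 0.0961). The call of Eif2ak3 was lost without Light 2 or Light 3 (0.0541 to 0.0569) and that of Eif2ak2 without Dark 1, Dark 3, Light 2 or Light 3 (0.0572 to 0.133). Nfe2l2, the gene of NRF2, stood at -0.11 (adjusted p = 0.383).

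Settings other than the libraries kept also moved some of these list genes. After the length and GC correction the calls of Amd1 (-0.09, adjusted p = 0.326), Impdh1 (0.11, 0.0827), Slc25a38 (0.03, 0.637), Sfxn1 (0.02, 0.894) and Slc25a32 (0.00, 0.991) were lost. Under that correction Adss stood at -0.15, Adssl1 at 0.40, Fpgs at 0.15, Pkm at 0.19, Prps2 at -0.36, Slc1a5 at 0.17, Slc38a2 at -0.19 and Trp53 at 0.16, all still called, and Slc38a1 was larger at 0.51. With equal FPKM totals the calls of Rrm2 (0.07, adjusted p = 0.257), Slc38a1 (0.10, 0.255), Slc25a38 (0.135, 0.146), Trp53 (0.13, 0.123), Gart (0.23, 0.0546), Ptdss2 (0.20, 0.053) and Impdh1 (0.15, 0.0516) were lost, and Eif2ak4 was called lower (-0.35, 0.0426). On those totals Adsl stood at 0.23, Fpgs at 0.20, Gcsh at 0.19, Pkm at 0.24, Slc1a5 at 0.19 and Sfxn1 at -0.36, all called. Quantile normalization took away the calls of Rrm2 (0.05, adjusted p = 0.453), Amt (-0.19, 0.139), Trp53 (0.11, 0.106), Pkm (0.16, 0.0688), Eif2ak3 (-0.23, 0.0679), Slc38a1 (0.18, 0.0675) and Slc25a32 (-0.30, 0.0613), and Gcsh stood at 0.21, still called. With no filter on low values the changes kept their size, but Adss, Amd1, Amt, Eif2ak2, Gart, Prps2, Sfxn1, Slc25a32, Slc25a38, Slc38a1, Slc38a2 and Trp53 were not called (adjusted p of 0.0509 to 0.0922). Median centring left Amt (adjusted p = 0.0545) and Sfxn1 (0.1) without a call, and a pseudocount of 0.1 raised the change of Adssl1 to 0.97.

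**Figure D4:**
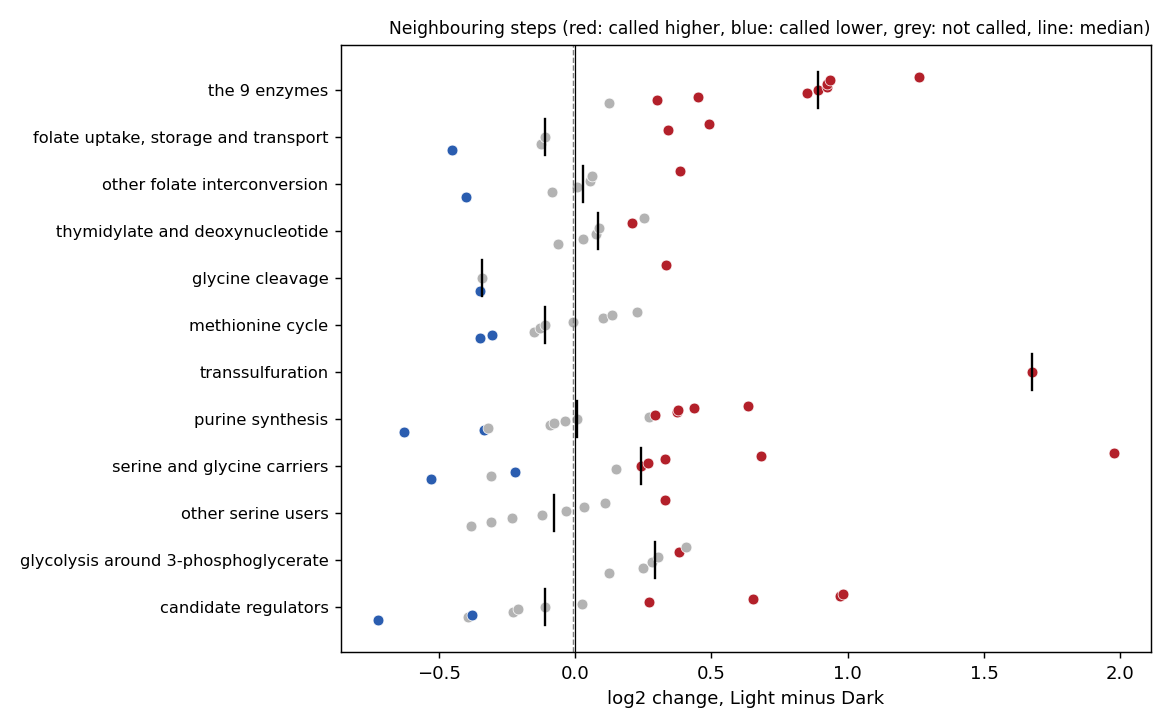
Log2 change (Light minus Dark) of every tested gene in the 11 lists and of the 9 enzymes, red where called higher, blue where called lower and grey where not called, with the list median as a black line and the median of all genes as a dashed line. The enzymes' median of 0.89 lies to the right of every list median but that of transsulfuration, which rests on the single tested gene Cth.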

How the data were processed

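Total RNA of 661W cells was extracted with TRIzol and made into mRNA libraries with a Hieff NGS Ultima dual-mode kit, per the labels' protocols. HISAT2 and build mm10 are named in the submitters' processing notes, without versions. The program that made the FPKM values, its annotation and its strand setting are not stated in the labels or headers. Per the file headers, the deposited unit is FPKM, given for each gene in 1 table and again, with the same values, in 6 files of single samples. Low values showed no whole-read steps (of 827 low genes, 0.484% to 0.605% shared the most frequent ratio of 2 libraries), so counts were not recovered.

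From these values, log2(FPKM + 1) was tested for genes whose mean reached 1 FPKM by limma 3.58.1 in R 4.3.3 (trend and robust options, 2-sided, group as the only term). Groups came from sample titles. The members and lists were chosen with earlier results of these data known, and the text names, from each list, up to 5 called genes of smallest adjusted p, each called gene that went against the majority of its list, and 5 chosen ATF4 response genes. Slc25a38 and the list genes not called or not tested were named for their role after their values were seen. Gene spans and transcript lengths are from GENCODE M21 on mm10 and likeness to other transcripts from BLAST 2.17.0 (at least 90% identity over 100 bases). The procedure was tested on simulated data. Their noise was independent between genes and libraries, so that test does not show how the calls behave where genes vary together. Alternatives changed the filter, pseudocount, scaling, replicate block, length and GC trend (loess, span 0.5) and the libraries kept. 1 list gene is not reported here.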

Additional observations from a re-analysis of the deposited data

How the results depend on the processing

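In every alternative, 7 to 9 of the 9 enzymes were called higher and 0 lower. Apart from Shmt1 and Mthfd1, each enzyme kept its call in all 16, with log2 changes of 1.12 to 1.48 for Aldh1l2, 0.70 to 1.02 for Phgdh, 0.72 to 1.02 for Shmt2, 0.76 to 0.98 for Psat1, 0.75 to 0.95 for Psph, 0.71 to 0.91 for Mthfd2 and 0.31 to 0.51 for Mthfd1l. Shmt1 was not called without Dark 1 and Light 2 together (0.25, adjusted p = 0.095) and ran from 0.16, with equal FPKM totals, to 0.36 over all 16, or from 0.27 to 0.32 when 1 library was left out. Mthfd1 turned to -0.018 (adjusted p = 0.811) once FPKM totals were made equal and ran from 0.075 to 0.18 when 1 library was left out. The 3 ratios were recomputed only as plain FPKM ratios and with 1 library left out, and there they kept their sign.

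Counts over all genes moved more, and the cause was not tested. The main count was 3938 calls (2128 higher, 1810 lower) among 11068 genes. Separate fits gave 2606 calls (1109 lower) among 19300 genes without a filter and 1427 (785 higher, 642 lower) without Dark 1 and Light 2, and rescaling to 1 FPKM total gave 1212 higher and 2902 lower. Leaving out 1 library gave 1228 to 5874 calls, 693 to 2990 higher and 533 to 2884 lower. Of the list genes 22 were higher and 11 lower; lower ones numbered 4 without a filter, 19 with rescaled totals and 0 without Dark 1 and Light 2, where 12 were higher, and leaving out 1 library gave 10 to 28 higher and 0 to 17 lower.

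The replicate numbers were not taken as pairs, since the labels name no pairs. Deviations of same-numbered libraries correlated at 0.687, 0.641 and -0.0887, and those of differently numbered libraries at -0.681 to 0.0774. Deviations within a group offset each other, so these values do not settle whether the numbers mark pairs. The block lowered the SE of Shmt2 from 0.10 to 0.05, and the fits that left out 1 library did not use it. With the replicate number as a block 6690 genes were called (3287 higher, 3403 lower) and 20 list genes were lower, while the same 8 enzymes were called and Mthfd1 was not (adjusted p = 0.067). With no read depth in the files, precision rests on 3 libraries per group.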

Other observations

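Gapdh, the glycolytic enzyme a step before Pgk1, stood at 43.5, 45.9 and 48.3 FPKM in Dark 1, 2 and 3 and at 38.7 and 40.1 FPKM in Light 1 and Light 3, but at 146 FPKM in Light 2. This gene was singled out after its values were seen.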
